A study of Mus musculus with 51 samples.

Results

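Potassium channels are a large and varied family of ion channels, and 91 of the 55401 genes in the count table were taken as its members. They were chosen by name alone, as the rows whose symbol starts with Kcn, continues with letters and ends in a number, with 1 such gene left out. Messenger RNA was sequenced in 30 libraries, 3 from each of 10 groups of mice of mixed 129Sv and C57Bl/6J background. DMRT1 is a transcription factor that keeps supporting cells of the testis in their male fate, and the study followed what its loss, or the R111G change in its DNA-binding domain, does to the gonad. Gonads at P28 (day 28 after birth) came from Dmrt1 +/+, Dmrt1 +/-, Dmrt1 -/- and Dmrt1 R111G/+ animals, and gonads at P3 from Dmrt1 +/-, Dmrt1 -/-, Dmrt1 R111G/+ and Dmrt1 R111G/- animals. At P7, Sertoli cells were isolated from Dmrt1 f/f animals (called null) and from Dmrt1 f/+ animals (called control), and both groups carried Dhh-Cre, which is active in Sertoli cells, together with CAG-Stopflox-tdTomato. The P7 control libraries are titled +/+ in the same labels. The R111G line descends from 1 edited founder, and the P7 preparations combined tubules of more than 1 mouse and were passed over beads against Thy1 and c-Kit, which bind germ cells.

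Potassium channels let K+ leave or enter the cell and so set the resting membrane voltage and end electrical signals. Most are built from pore-forming alpha subunits, and the family divides into voltage-gated channels, channels opened by calcium, sodium or pH, inward rectifiers, two-pore leak channels and accessory subunits that modify the others. In the testis the best known is Kcnu1, which encodes the sperm-specific channel SLO3 that hyperpolarises sperm before fertilisation. By these classes the members were 39 voltage-gated alpha subunits, 8 calcium-, sodium- or pH-activated channels, 15 inward rectifiers, 14 two-pore channels and 15 accessory subunits. All 91 had at least 1 count, and 2 of them, Kcnk16 and Kcnk18, had fewer than 10 counts over the 30 libraries. After the filter on low counts, 64 members could be tested at P28, 33 in the P7 Sertoli cells, 55 at P3 and 68 across P3 and P28, and 23 were tested nowhere.

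Library totals ran from 5043838 to 12792811 counts, with a median of 8776697. Levels are CPM, read counts relative to library size, scaled by TMM to correct for differences in library composition and given as mean ± SD of 3 libraries, and a gene was called where its adjusted p was below 0.05 and its change over 2-fold. Dmrt1 itself was at 41.8 ± 5.4 CPM in P28 +/+ gonads and 0.353 ± 0.159 in P28 -/- gonads, and at 201 ± 50.5 against 27.6 ± 8.17 in control and null P7 Sertoli cells. The 8 spermatid markers summed to 16000 to 19200 CPM in P28 +/+, 23.4 to 30.5 in -/- and 499 to 588 in R111G/+ gonads. The 3 P28 +/- libraries stood apart from each other in these markers, at 15000, 19600 and 3840 CPM in replicates 1, 2 and 3. In whole gonads, fewer cells of a type and less RNA per cell cannot be told apart. Nothing in the labels says that libraries of a group are separate animals, so the p-values measure the spread between these samples, which may be partly technical.

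The members summed to 889 ± 12.7 CPM in P28 +/+ gonads, 837 ± 69.7 in -/-, 586 ± 19.4 in R111G/+ and 987 ± 43 in P3 +/- gonads, and which of them made up that sum differed from group to group. Per kb of exon, P28 +/+ testes had most of Kcne3, an accessory beta subunit, at 59.1 ± 5.58 CPM per kb, followed by the inward rectifier Kcnj9 at 38.3 ± 4.21. Kcnu1 led the calcium-, sodium- or pH-activated class there at 11.7 ± 0.811 CPM per kb, Kcng4, a silent subunit that needs a partner to form a channel, led the voltage-gated class at 10.2 ± 0.563, and the leak channel Kcnk5 led the two-pore class at 9.08 ± 2.47. Different genes led the classes in P28 -/- gonads. They were Kcnh2, which encodes the cardiac repolarising channel hERG, at 21.4 ± 3.81 CPM per kb, the sodium-activated channel Kcnt1 at 17.9 ± 6.09, the leak channel Kcnk1 at 16.7 ± 4.81, the beta subunit Kcnab3 at 10.7 ± 2.97 and the ATP-sensitive Kcnj8 at 7.29 ± 0.899, each the highest of its class, and Kcnd2, at 12.1 ± 2.25, lay above the last 2 of them. In P7 control Sertoli cells the silent subunit Kcng2 was the highest member at 23.1 ± 4.66 CPM per kb, and the other classes were led by Kcnt1 at 9.52 ± 0.502, Kcnk13 at 9.01 ± 3.45, Kcnab3 at 4.26 ± 1.28 and Kcnj3 at 1.42 ± 0.865. In P3 +/- gonads the acid-sensitive leak channel Kcnk3 was the highest, at 40.2 ± 1.85 CPM per kb, and the other classes were led by the transient-current channel Kcnd3 at 16.5 ± 1.91, the calcium-binding partner Kcnip3 at 9.88 ± 2.31, Kcnt1 at 8.04 ± 2.67 and Kcnj8 at 2.98 ± 1.12.

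**Figure D1:**
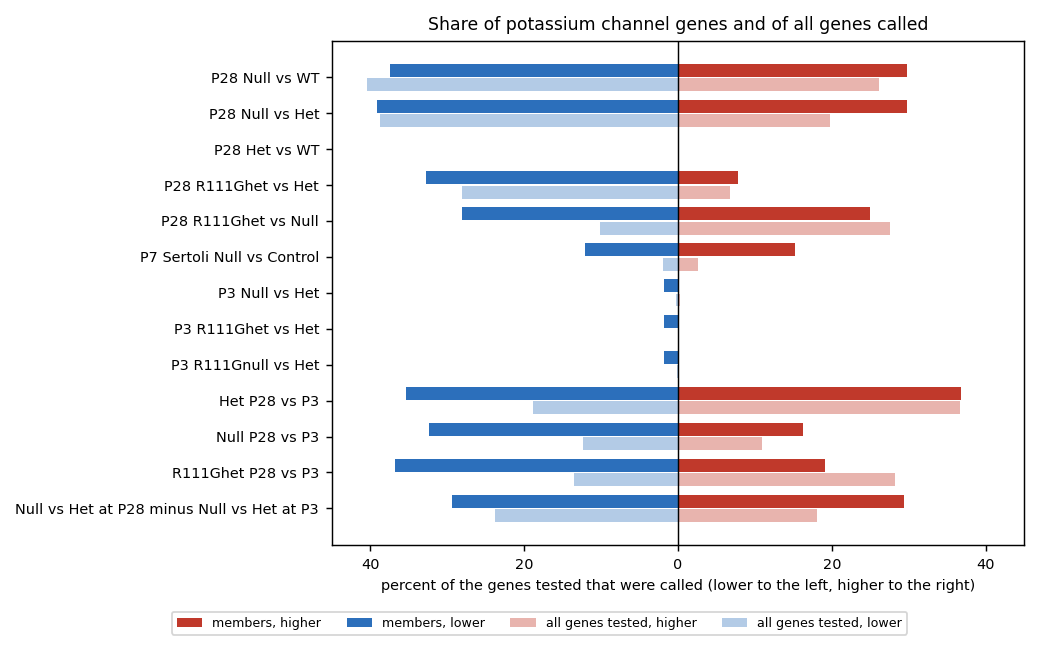
Percent of tested potassium channel genes (dark bars) and of all tested genes (pale bars) called lower (left) or higher (right) in each comparison, where Null, Het, WT, R111Ghet and R111Gnull stand for -/-, +/-, +/+, R111G/+ and R111G/-. In P28 Null vs WT the members' 37.5% lower and 29.7% higher lie near the 40.5% and 26.1% of all genes.

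The first question was how the family differed between P28 gonads without Dmrt1 and wild-type testes. Of 64 members tested, 24 were lower and 19 higher in -/- gonads, 67.2% in all, beside 66.6% of all 20952 genes tested, so the share of members called was near the background. Among all genes 40.5% were lower and 26.1% higher, and the median log2 change was -0.07 for the members and -0.31 for all genes. The split depended on the scaling. With factors taken from markers of macrophages, endothelial, myoid and stromal cells alone, the median of all genes moved to -2.54 and the members called were 43 lower and 3 higher, the 3 being Kcnj5, Kcnj3 and Kcnt1. Member counts under these factors, here and below, stand without the share of all genes called under them. The same holds for member counts under every other alternative setting and with libraries left out. Such counts show only how the calls depend on the processing. Values below are on the TMM scale unless another scaling is named.

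Kcnu1 was at 43.3, 40.6 and 46.6 CPM in the 3 +/+ libraries and at 1.51, 1.276 and 1.20 in the 3 -/- libraries. The groups lay far apart, with a log2 change of -5.00 ± 0.40 (SE, edgeR quasi-likelihood adjusted p = 1.02e-07). Lrrc52, the auxiliary subunit of the SLO3 channel and no member of the family by name, was lower too, from 40.7 ± 9.45 to 0.0639 ± 0.0563 CPM. Kcne3 was at 104, 116 and 96.0 CPM in +/+ and 1.62, 0.957 and 1.03 in -/- libraries, a log2 change of -6.42 ± 0.54 (edgeR adjusted p = 1.56e-07). Of the 12 accessory subunits tested 7 were lower and 2 higher, beside 40.5% and 26.1% of all genes. The lower ones included Kcnmb4, a beta subunit of the large-conductance calcium-activated channel, at 42.4 ± 2.85 CPM in +/+ and 0.975 ± 0.369 in -/- gonads. Another was Kcnip2, a calcium-binding partner of the transient-current channels, at 23.0 ± 3.66 and 1.25 ± 0.167. Among the voltage-gated genes that were lower, Kcng1 went from 28.1 ± 5.51 to 1.23 ± 0.487 CPM and Kcnq3, a subunit of the neuronal M-current channel, from 16.8 ± 4.34 to 0.737 ± 0.441. Kcnh8 had 4.93 CPM in +/+ and 0 counts in -/- libraries, so it was at least 48.3-fold lower with the group's floor set at 3 counts. Kcnc1 was at 8.24 CPM against 1 count over the -/- group, a ratio of 0.0041 with a 95% counting interval of 0.000103 to 0.0231. The spermatid and spermatocyte markers moved with these genes, the latter summing to 3060 to 3720 CPM in +/+ and 5.56 to 8.93 in -/- gonads, and their part in the result was not tested.

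Among the 19 members that were higher, Kcnt1 was at 6.92, 7.21 and 4.12 CPM in +/+ and at 136, 138 and 237 in -/- libraries, with no overlap and a log2 change of 4.83 ± 0.37 (edgeR adjusted p = 6.33e-08). Its relative Kcnt2 went from 0.21 to 3.19 CPM. Also higher were Kcnd2, a transient-current channel, at 62.1 ± 11.6 CPM against 10.7 ± 7.29, and Kcnj2, which stabilises the resting voltage, at 13.03 ± 2.91 against 1.72 ± 1.09. The delayed rectifiers Kcna5 and Kcna2 and the silent subunit Kcns3 rose by log2 changes of 3.30, 2.95 and 2.58. Kcnh2 reached 104 ± 18.5 CPM from 32.2 ± 5.36, and Kcnma1, the pore of the large-conductance calcium-activated channel, 27.2 ± 6.57 from 9.52 ± 1.64. Kcnj8 rose from 2.30 ± 0.972 to 18.6 ± 2.29 CPM, and Abcc9, which encodes the sulfonylurea receptor that assembles with it, from 7.80 ± 0.634 to 34.7 ± 2.36. Kcna6 was not called, at 1.66 ± 0.216 CPM in +/+ and 2.61 ± 0.246 in -/- gonads (log2 change 0.68), and on the somatic-marker scale its change was -1.52. Sums of granulosa markers (164 to 230 CPM in +/+, 4020 to 4180 in -/-), endothelial markers (42.5 to 57.4 against 512 to 589), stromal markers (431 to 689 against 3140 to 3870) and Leydig markers (977 to 2410 against 10300 to 12300) were all higher in -/- libraries. So were Sertoli markers (659 to 796 against 1600 to 1800), macrophage markers (179 to 334 against 607 to 809) and erythroid markers (43.1 to 86.7 against 236 to 401). Myoid markers overlapped between the groups, and spermatogonia markers were lower (854 to 1010 against 205 to 306). The part of any of these in the members' rise was not tested.

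**Figure D2:**
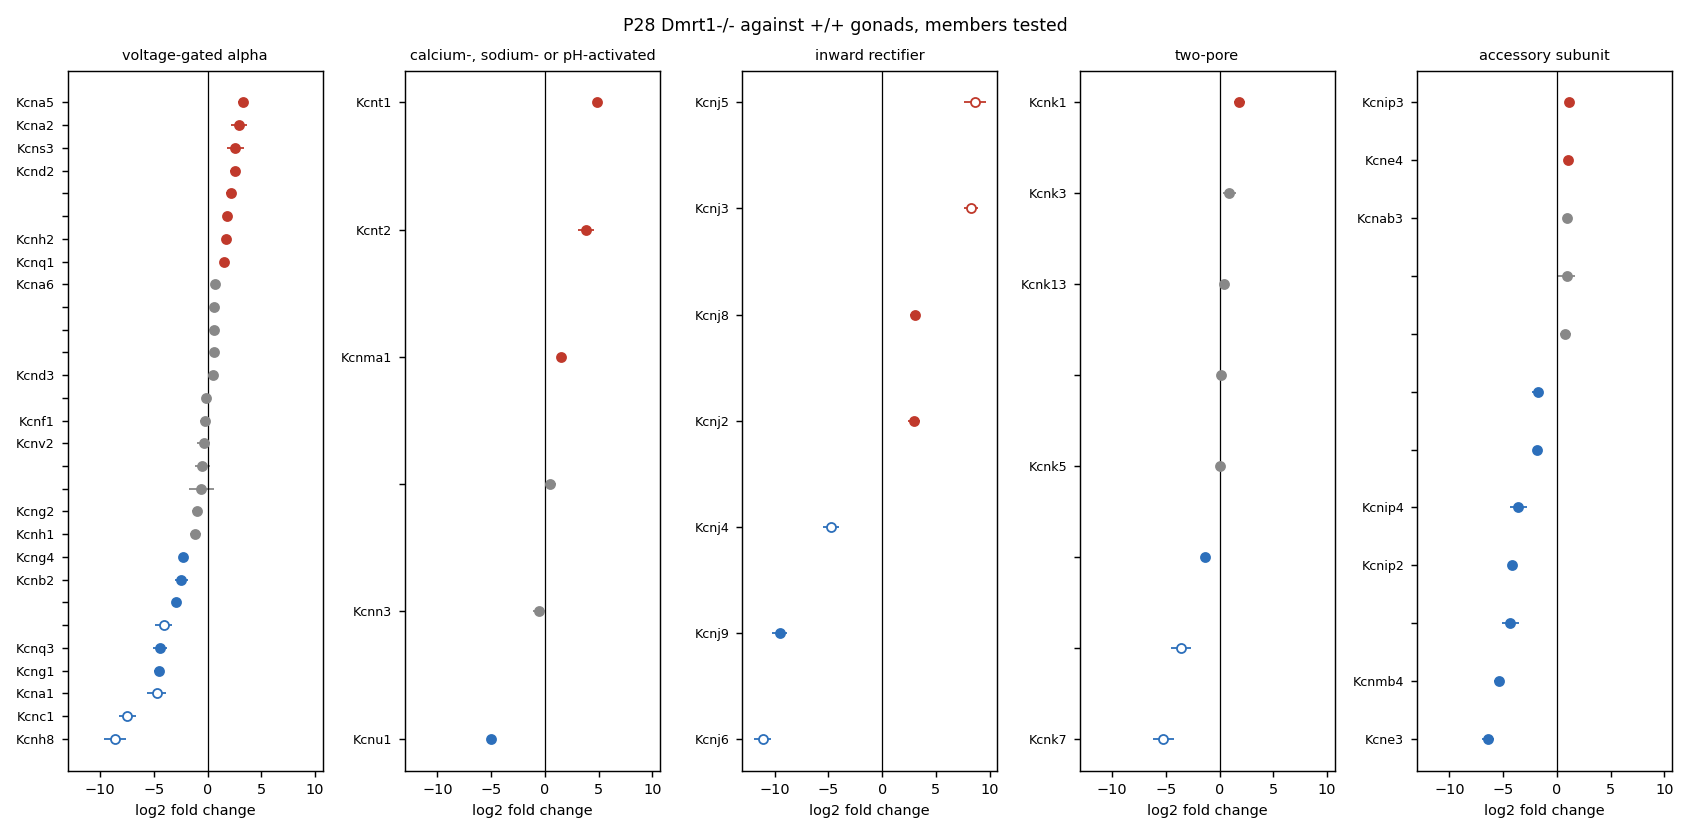
Log2 fold change of the members tested, 2 of them not drawn, with the names of those the text describes, P28 Dmrt1 -/- over +/+ gonads, by class, with SE as bars; red is called higher, blue called lower and grey not called, and open symbols mark members with 3 counts or fewer in 1 group. The inward rectifiers split into 4 called higher and 3 called lower, with none between.

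Among the inward rectifiers, the 4 genes of the G protein-gated (GIRK) channels, whose products assemble with one another, parted in pairs in these P28 gonads. Kcnj6 was at 24.9, 33.8 and 26.6 CPM in +/+ libraries and at 0 in all 3 -/- libraries, at least 279-fold lower. Kcnj9 was at 152, 156 and 185 CPM in +/+ and at 0.116, 0.213 and 0.257 in -/- libraries, a log2 change of -9.55 ± 0.70 (edgeR adjusted p = 4.67e-08). The other pair went the opposite way. Kcnj3 had 1 count in the +/+ group and 13.4, 16.4 and 20.95 CPM in -/- libraries, a ratio of 394 with a 95% counting interval of 70.5 to 15600. Kcnj5 had 0 counts in +/+ and 5.67, 3.72 and 5.47 CPM in -/- libraries, at least 37.8-fold higher. Per kb, the highest of the 4 in +/+ testes was Kcnj9 (38.3 CPM per kb) and in -/- gonads Kcnj3 (3.24 CPM per kb). In P3 +/- gonads Kcnj3 and Kcnj5 were at 1.42 and 1.53 CPM per kb, while Kcnj6 and Kcnj9 were at 0.0113 and 0.0205. Whether Kcnj3 and Kcnj5 moved together or apart at the earlier ages was not tested. P3 -/- gonads had 2.20 CPM per kb of Kcnj3 and 0.805 of Kcnj5, and neither was called against +/-. In P7 Sertoli cells Kcnj3 was at 1.42 CPM per kb in control and 5.01 in null cells. Kcnj5, not tested there, was at 0.131 and 0.0628.

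The 250 bases before the annotated start of each of these genes are shown because the pairs moved apart; they are RefSeq sequences of build GRCm38.p6, written 5′ to 3′ on the gene's own strand. Kcnj3 is at chr2:55435720-55435969 on the plus strand, and Kcnj5 at chr9:32344345-32344594, Kcnj6 at chr16:94997697-94997946 (the more upstream of its 2 windows) and Kcnj9 at chr1:172329323-172329572 on the minus strand. Capitals would mark a match to AGGTCA (a nuclear receptor site), TGACGTCA (the cyclic AMP response element), TGACG (the shorter site within it), ACANTGT (the core of the DMRT1 site) or TGTTTAC (a forkhead site) on either strand, and none of these windows held one.
Kcnj3: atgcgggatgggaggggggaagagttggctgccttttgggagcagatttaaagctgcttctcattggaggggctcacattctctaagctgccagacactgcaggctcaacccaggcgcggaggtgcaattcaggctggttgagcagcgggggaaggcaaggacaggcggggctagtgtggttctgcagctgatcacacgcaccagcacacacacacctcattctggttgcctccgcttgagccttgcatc
Kcnj5: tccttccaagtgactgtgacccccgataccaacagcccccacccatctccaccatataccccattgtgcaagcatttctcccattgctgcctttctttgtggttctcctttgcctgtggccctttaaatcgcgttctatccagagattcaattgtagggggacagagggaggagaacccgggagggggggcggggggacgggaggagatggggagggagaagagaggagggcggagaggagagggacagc
Kcnj6: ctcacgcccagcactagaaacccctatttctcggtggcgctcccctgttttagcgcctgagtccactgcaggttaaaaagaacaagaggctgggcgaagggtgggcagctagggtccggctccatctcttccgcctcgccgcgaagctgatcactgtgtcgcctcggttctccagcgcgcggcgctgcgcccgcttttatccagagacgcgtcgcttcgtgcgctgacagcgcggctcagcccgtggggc
Kcnj9: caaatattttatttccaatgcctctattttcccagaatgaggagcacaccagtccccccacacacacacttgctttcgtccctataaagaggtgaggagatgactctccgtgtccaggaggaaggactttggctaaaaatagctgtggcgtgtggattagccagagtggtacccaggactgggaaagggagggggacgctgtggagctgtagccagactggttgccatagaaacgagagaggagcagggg
Each motif was also counted in all 32841 windows of this length in the table. The nuclear receptor site AGGTCA was in 14% of them, the cyclic AMP response element in 1.55%, its shorter site in 17.8%, the DMRT1 core in 6.46% and the forkhead site in 3.17%. The table held 91 windows of 66 members, with the same motifs in 6.59%, 0%, 14.3%, 6.59% and 0%. The shorter site lies within the full cyclic AMP response element, and it was added after the full element had been found in no member and the Kcna6 window had been seen.

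**Figure D3:**
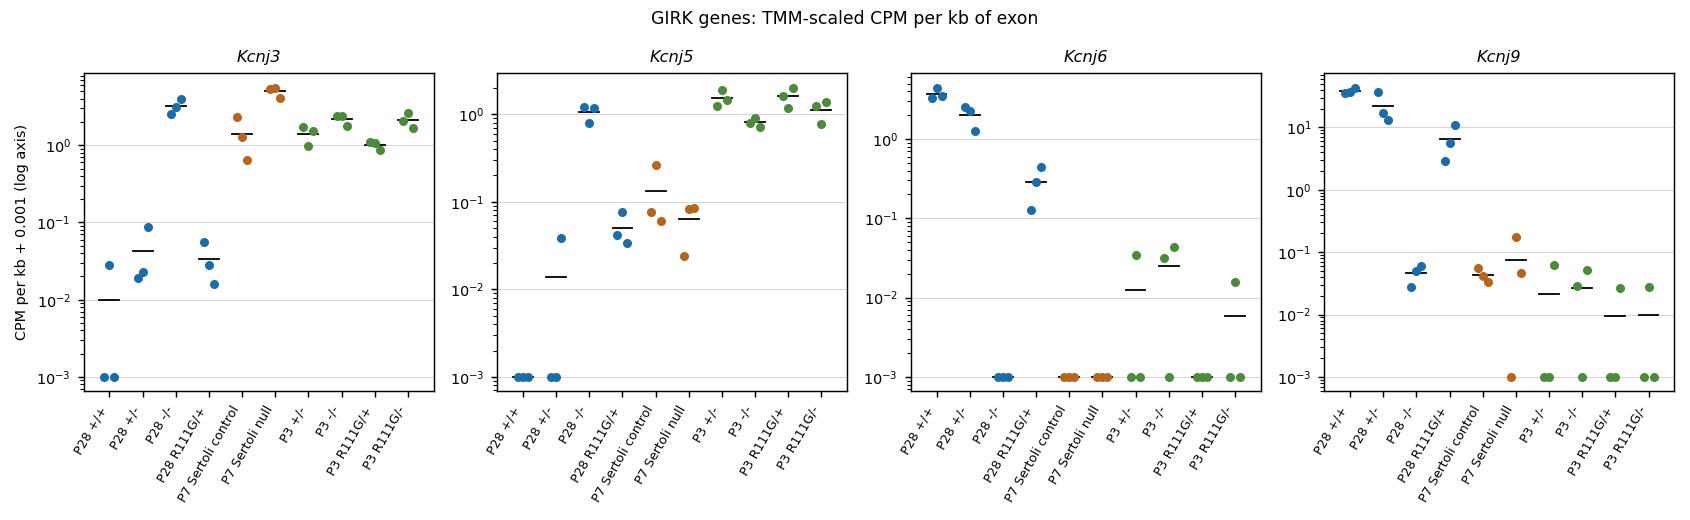
TMM-scaled CPM per kb of exon plus 0.001, on a log axis, of the 4 GIRK genes in the 30 libraries, with 1 point per library and a line at each group's mean; P28 is blue, P7 Sertoli cells brown and P3 green. Kcnj6 and Kcnj9 are high in P28 +/+ testes and low in -/- gonads, and Kcnj3 and Kcnj5 the reverse.

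Against +/- testes, which share the -/- libraries with the comparison above, 25 members were lower and 19 higher of 64 (68.8%), with 58.5% of all genes called, 38.7% lower and 19.8% higher. With factors from the somatic markers the split was 40 lower and 7 higher. Kcnu1 was at 31.2, 47.2 and 16.1 CPM in +/- libraries, the lowest in replicate 3, and its log2 change was -4.56 ± 0.40 (edgeR adjusted p = 2.87e-07). Kcne3 followed the same order, at 66.9, 106 and 40.4 CPM. Kcna6 was called higher in -/- gonads by 1.09 ± 0.36 (edgeR adjusted p = 0.0143), from 1.24 ± 0.441 to 2.61 ± 0.246 CPM, but the change was under 2-fold without +/- replicate 3 (0.88) or without -/- replicate 3 (0.96), and -0.61 on the somatic-marker scale. Kcng2 was lower, from 5.18 ± 2.69 to 1.70 ± 0.705 CPM (log2 change -1.60). Leaving out +/- replicate 3 gave 26 lower and 18 higher members. Between +/- and +/+ testes 0 members were called, as 0% of all genes were, and 7 members and 3769 genes had an unadjusted p below 0.05. DESeq2 also called 0 members there. Among the 7 were Kcnd3 at 82 CPM in +/- against 51.2 in +/+, and Kcng1 at 13.7 ± 6.65 against 28.1 ± 5.51.

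In P28 R111G/+ gonads, compared with the same +/- testes, 21 members were lower and 5 higher of 64, which is 40.6%, beside 34.8% of all genes, 28.1% lower and 6.72% higher. Kcnu1 was at 2.97, 4.14 and 5.63 CPM, below every +/- library, with a log2 change of -2.85 ± 0.34 (edgeR adjusted p = 4.64e-05). Kcne3 was at 2.49, 9.68 and 10.0 CPM (log2 change -3.22 ± 0.43), Kcnip2 at 2.16 ± 0.415 against 25.4 ± 14.4 and Kcnmb4 at 7.22 ± 3.01 against 26.6 ± 8.92. Kcnj6 and Kcnj9 were lower as well, at 2.18 ± 1.22 and 27.4 ± 17.1 CPM, with log2 changes of -2.77 and -1.76. The silent subunits Kcng2 and Kcnf1 were lower too. Kcng2 was at 0.288, 0.140 and 0.231 CPM in R111G/+ against 4.63, 2.81 and 8.10 in +/- libraries, a log2 change of -4.51 ± 0.55 (edgeR adjusted p = 5e-05), and Kcnf1 at 0.151 ± 0.113 against 1.25 ± 0.209. Kcnip4 and Kcnb2 fell by 3.06 and 2.89 on the log2 scale. Kcnh8 had 2 counts in the R111G/+ group, a ratio of 0.0192 with a 95% counting interval of 0.00229 to 0.0715, and Kcnk7 had 3, a ratio of 0.0556 with an interval of 0.011 to 0.174. Of the 21, Kcna1, Kcnv2 and Kcng1 overlapped between the groups.

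Higher in R111G/+ gonads were Kcnt1, at 19.8, 32.3 and 35.7 CPM against 7.38, 7.41 and 13.2 (log2 change 1.67 ± 0.32, edgeR adjusted p = 0.00103), and Kcna5, Kcnj8, Kcne4 and Kcnip3, by 1.43, 1.26, 1.10 and 1.01. None of the 5 was called with factors from the somatic markers, which gave 32 lower and 0 higher, while library totals alone gave 15 lower and 7 higher. Without +/- replicate 3 the calls were 25 lower and 6 higher. Kcna6 was at 0.659 ± 0.101 CPM and was not called, but without that library its log2 change was -1.09 and called (edgeR adjusted p = 0.0366). Stromal markers summed to 1240 to 2390 CPM in R111G/+ against 616 to 978 in +/- libraries and macrophage markers to 623 to 1470 against 257 to 430, and their part in these values was not tested.

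Between the mutant groups themselves, R111G/+ and -/- gonads at P28 differed in 34 of 64 members, 16 higher and 18 lower in R111G/+ (53.1%), with 37.7% of all genes called, 27.6% higher and 10.1% lower. With factors from the somatic markers the calls were 25 higher and 11 lower. Kcnj9 was at 12.3, 24 and 46.0 CPM in R111G/+ and at 0.257 or less in -/- libraries, a log2 change of 7.03 ± 0.70 (edgeR adjusted p = 3.3e-06), and Kcnj6 was at least 22.4-fold higher. Kcnj3 and Kcnj5 were lower in R111G/+, at 0.168 ± 0.108 and 0.232 ± 0.104 CPM against 16.9 ± 3.79 and 4.96 ± 1.07. Kcnu1, Kcne3, Kcnmb4 and Kcng1 were higher in R111G/+ by 1.71, 2.67, 2.93 and 2.24 on the log2 scale, and Kcnt1 lower by 2.52. Kcng2, Kcnf1, Kcnk5 and Kcnab3 were lower in R111G/+ than in -/- and also lower than in +/- gonads, in comparisons that share the R111G/+ libraries. Kcnk5 was at 9.85 ± 1.35 CPM in R111G/+, 31.2 ± 1.99 in -/- and 23.1 ± 3.90 in +/- gonads. Kcna6 was lower in R111G/+ than in -/- gonads, with a log2 change of -1.94 ± 0.38 (edgeR adjusted p = 0.00078). Spermatocyte markers summed to 672 to 980 CPM in R111G/+ and 5.56 to 8.93 in -/- libraries. Granulosa markers summed to 454 to 863 and 4020 to 4180, endothelial markers to 75.4 to 132 and 512 to 589, and Leydig markers to 2570 to 5480 and 10300 to 12300. Sertoli, macrophage and myoid markers overlapped. The part of any of these in the members' differences was not tested.

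**Figure D4:**
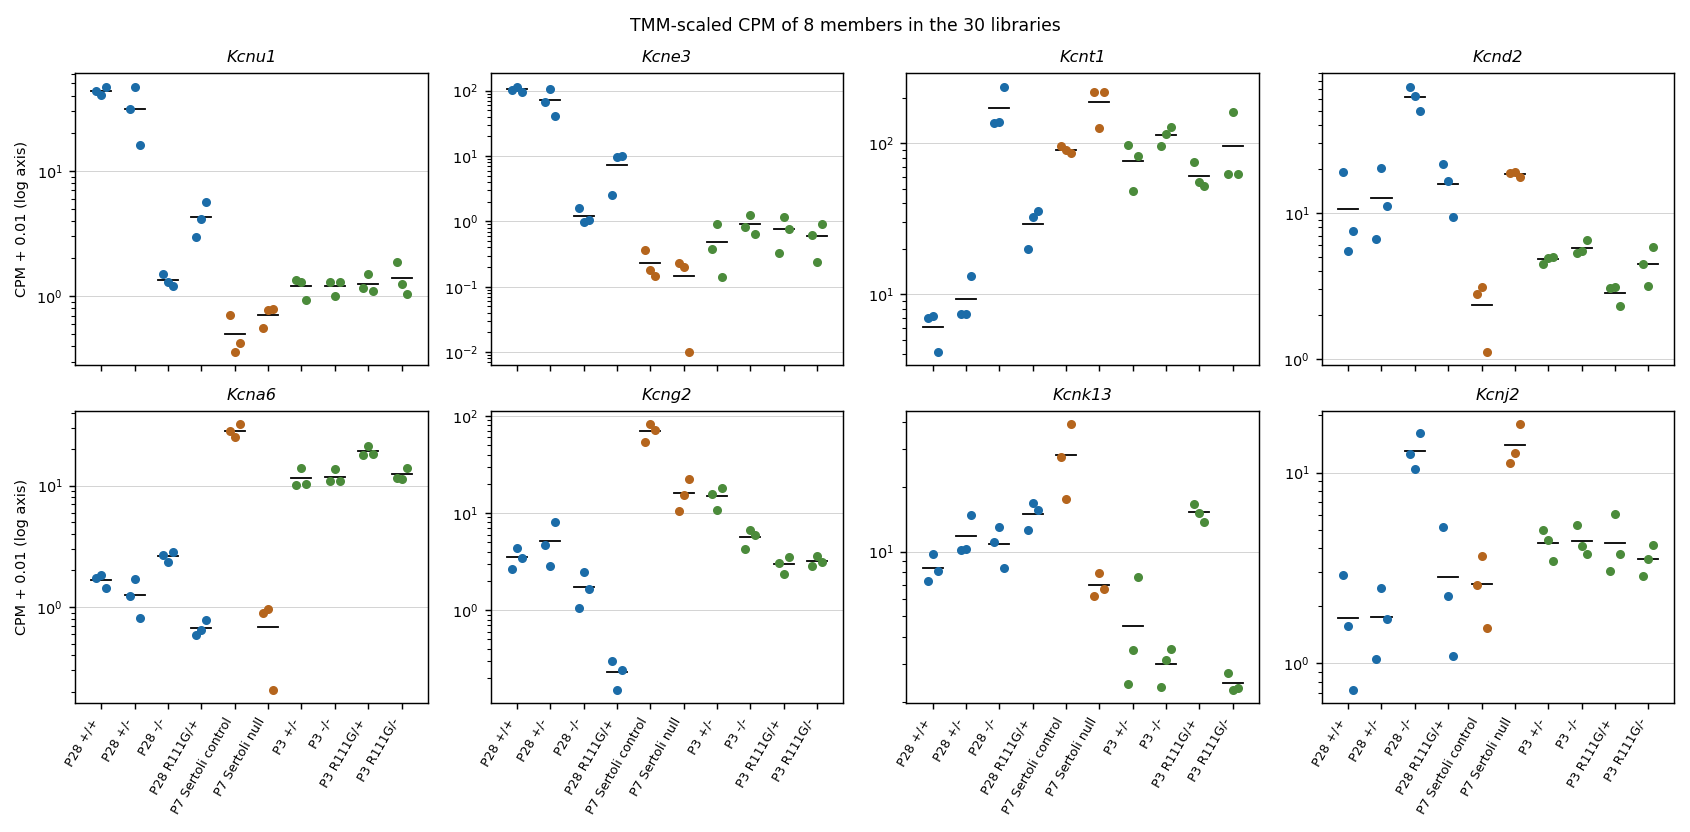
TMM-scaled CPM plus 0.01, on log axes, of 8 members in the 30 libraries, with 1 point per library and a line at each group's mean; P28 is blue, P7 Sertoli cells brown and P3 green. Kcna6 is highest in P7 control Sertoli cells (28.4 CPM) and falls to 0.673 CPM in null cells, and mean Kcng2 is lower in each mutant group than in the +/-, or at P7 the control, group of its age.

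The P7 libraries ask what the loss of Dmrt1 did in preparations enriched for Sertoli cells, in which markers of other cell types also had counts. Of 33 members tested, 4 were lower and 5 higher in null cells (27.3%, beside 4.56% of all 14013 genes, 2.00% lower and 2.56% higher). Kcna6, a delayed rectifier alpha subunit, was at 28.2, 24.98 and 31.9 CPM in control libraries and 0.875, 0.948 and 0.197 in null libraries. The log2 change was -5.31 ± 0.40 (edgeR adjusted p = 0.000732), and it was called without each of the 6 libraries in turn. In whole P3 gonads Kcna6 was at 11.9 ± 1.62 CPM in -/- and 11.5 ± 2.20 in +/-, and the difference between the changes at P3 and P7 was not tested. The null Sertoli preparations differed in Kcng2 as well, at 10.4, 15.2 and 22.6 CPM against 54.1, 81.5 and 71.8 (log2 change -2.12 ± 0.30, edgeR adjusted p = 0.0073). Kcnk13, a two-pore channel known from microglia, was at 6.96 ± 0.899 against 28.03 ± 10.7 CPM, and Kcnq3 at 4.64 ± 1.24 against 13.4 ± 3.22.

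Higher in null Sertoli cells were Kcnd2, at 18.6, 19.0 and 17.5 CPM against 2.80, 3.12 and 1.11 (log2 change 2.97 ± 0.37, edgeR adjusted p = 0.00414), and Kcnk3, at 8.10, 10.6 and 7.27 CPM against 0.816, 1.56 and 0.414 (log2 change 3.23 ± 0.47, edgeR adjusted p = 0.00779). Kcnj2 was at 13.96 ± 3.48 against 2.58 ± 1.06 CPM, Kcnj3 at 26.1 ± 3.94 against 7.38 ± 4.51 and Kcnt1 at 188 ± 52.9 against 90.4 ± 4.77. Kcnma1 missed the 2-fold limit, at 102 ± 7.15 against 52.4 ± 14.7 CPM (log2 change 0.95, edgeR adjusted p = 0.037). Leaving out 1 library at a time left 4 to 9 members called. Without null replicate 3 the 4 called were Kcna6, Kcng2, Kcnd2 and Kcnk3, and Kcnj3, Kcnq3 and Kcnt1 each lost their call without 5 of the 6 libraries. The 8 Sertoli markers summed to 2860 to 3510 CPM in control and 2330 to 3640 in null cells. Of these 8 genes, 1 had no count in any null library. Endothelial markers summed to 11.5 to 19.6 CPM in control and 30.8 to 54.2 in null libraries, Leydig markers to 38 to 77.1 and 124 to 213, and stromal markers to 29.8 to 208 and 99.5 to 367. Markers of germ cells had counts as well. Those of spermatogonia summed to 272 to 495 CPM in control and 136 to 417 in null libraries. Those of spermatids summed to 130 to 135 and 128 to 185, against 0.121 to 0.906 in whole P3 +/- gonads. Where the spermatid-marker counts of these P7 libraries came from was not tested. What part other cell types had in the 9 called members was not tested either. Kcnk3 was at 160 ± 7.34 CPM in whole P3 +/- gonads.

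**Figure D5:**
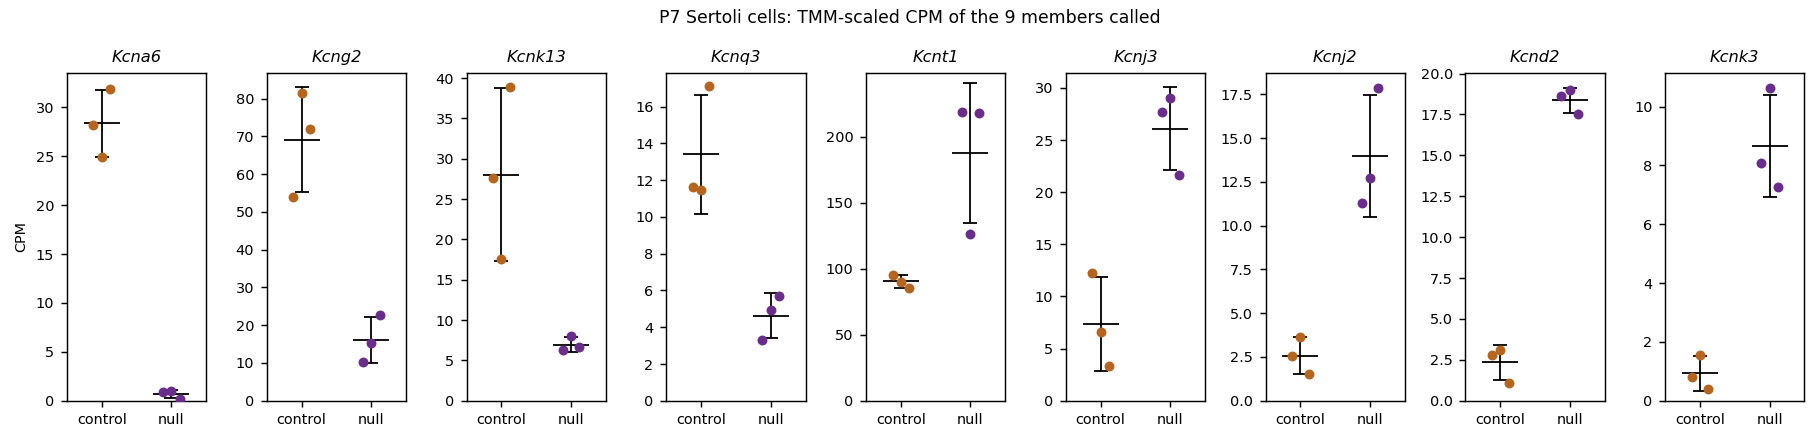
TMM-scaled CPM on linear axes from 0 of the 9 members called in P7 Sertoli cells, with 1 point per library and mean ± SD of 3; control is brown and null purple. No member's groups overlap, and Kcna6 falls from 28.4 to 0.673 CPM.

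The 250 bases before the start of Kcna6, at chr6:126740675-126740924 on the minus strand of GRCm38.p6 (RefSeq), are shown because this member changed most in Sertoli cells. Capitals mark the 1 match among the motifs named above, the reverse of TGACG, 6 bases before the start, and no ACANTGT was present in this window.
Kcna6: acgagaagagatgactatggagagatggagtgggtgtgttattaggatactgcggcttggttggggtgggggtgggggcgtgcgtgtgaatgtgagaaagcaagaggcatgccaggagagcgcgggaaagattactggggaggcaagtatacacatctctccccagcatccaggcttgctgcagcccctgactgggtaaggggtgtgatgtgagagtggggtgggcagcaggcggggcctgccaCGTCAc

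At P3, the 3 mutant groups were each set against the same +/- gonads, and 1 of 55 members was called in each, Kcng2, lower every time. The calls were 1.82% of the members. Of all 15837 genes, 0.511% were called in -/- (0.202% higher, 0.309% lower), 0.133% in R111G/+ (0.0821% higher, 0.0505% lower) and 0.196% in R111G/- gonads (0.0379% higher, 0.158% lower). Kcng2 was at 15.7, 10.8 and 18.1 CPM in +/-, at 4.23, 6.74 and 5.89 in -/-, at 3.04, 2.34 and 3.50 in R111G/+ and at 2.84, 3.62 and 3.10 in R111G/- libraries. All mutant libraries lay below all +/- libraries. The log2 changes were -1.40 ± 0.25, -2.33 ± 0.26 and -2.20 ± 0.26 for -/-, R111G/+ and R111G/- (edgeR adjusted p = 0.0176, 0.002 and 0.00175). The call for -/- was lost without any 1 of +/- replicates 1 and 3 and -/- replicates 1 and 3 (edgeR adjusted p = 0.0515, 0.088, 0.106 and 0.078), with only these 2 groups in the fit (edgeR adjusted p = 0.0538) and with factors from the somatic markers (edgeR adjusted p = 0.243), where the log2 change was -1.35. Kcnk13 was at 16.7, 15.1 and 13.8 CPM in R111G/+ against 2.43, 3.50 and 7.65 in +/- libraries, without overlap but not called (log2 change 1.74, edgeR adjusted p = 0.0539). Kcna6 was at 19.1 ± 1.69 CPM in R111G/+ against 11.5 ± 2.20, again not called (log2 change 0.73, edgeR adjusted p = 0.127). Kcnu1 was called in none of the 3 comparisons, and its libraries overlapped between the groups in each.

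From P3 to P28, +/- gonads changed in 49 of 68 members, 25 higher and 24 lower at P28 (72.1%), beside 55.5% of all 21377 genes, 36.6% higher and 18.9% lower. Higher were Kcnj9, from 0.0879 ± 0.152 to 94.8 ± 53.6 CPM (a ratio of 1120 with a 95% counting interval of 310 to 9260), Kcne3, from 0.468 ± 0.397 to 71.0 ± 32.9, and Kcnu1, from 1.184 ± 0.227 to 31.5 ± 15.6. Lower were Kcnh1, from 58.0 ± 38.1 to 0.787 ± 0.119 CPM, the beta subunit Kcne1, from 23.4 ± 20.3 to 0.568 ± 0.189, the small-conductance channel Kcnn3, from 27 ± 1.29 to 1.34 ± 0.509, and Kcnt1, from 76.4 ± 25.3 to 9.32 ± 3.34. Kcna6 had a log2 change of -3.21 ± 0.25. The spermatid markers summed to 0.121 to 0.906 CPM in P3 +/- gonads and were 3840 or more at P28. Several somatic lists were lower at P28, stromal markers summing to 5750 to 7860 CPM at P3 and 616 to 978 at P28, endothelial markers to 347 to 393 and 55.4 to 77.9, granulosa markers to 1280 to 2140 and 267 to 557, and Sertoli markers to 1700 to 2740 and 869 to 1410. The granulosa list holds Esr2 and Nr5a2 (Lrh1), which the paper proposes also act in juvenile Sertoli cells, so it need not mark granulosa cells here. Macrophage markers were higher at P28, at 257 to 430 against 55.2 to 105 CPM, and so were Leydig markers, at 1510 to 2660 against 1080 to 1330. Erythroid markers were lower at P28, at 34.7 to 101 against 601 to 2920 CPM, and myoid markers overlapped. Spermatocyte and spermatogonia markers were higher at P28. The part of any of these in the members' changes was not tested.

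In -/- gonads the same interval changed 33 of 68 members, 11 higher and 22 lower (48.5%), with 23.2% of all genes called, 10.8% higher and 12.4% lower. In R111G/+ gonads it changed 38, 13 higher and 25 lower (55.9%), with 41.7% of all genes called, 28.1% higher and 13.5% lower. Kcnu1 was at 1.19 ± 0.167 CPM at P3 and 1.33 ± 0.16 at P28 in -/- gonads and was not called (log2 change 0.12 ± 0.41, edgeR adjusted p = 0.883), and in R111G/+ gonads it went from 1.25 ± 0.213 to 4.25 ± 1.33. In -/- gonads Kcnd2 went from 5.77 ± 0.666 to 62.1 ± 11.6 CPM, Kcnk1 from 14.2 ± 2.39 to 37.2 ± 10.8 and Kcnab3 from 4.77 ± 2.00 to 30.6 ± 8.52. Kcnh1 fell in all 3 genotypes, to 0.910 CPM from 75.3 in -/- and to 0.603 from 30.8 in R111G/+. With factors from the somatic markers the calls at P28 against P3 were 33 higher and 15 lower in +/-, 5 and 37 in -/-, and 20 and 16 in R111G/+ gonads. A test of whether the difference between -/- and +/- was the same at the 2 ages called 40 of 68 members (58.8%), 20 each way, with 41.7% of all genes called, 18.0% higher and 23.7% lower. With those factors it called 2 higher and 45 lower.

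Partner genes were read from a list of 20 auxiliary subunits and ion-transport genes, of which 17 could be tested at P28. In -/- against +/+ gonads 7 of the 17 were higher and 4 lower, beside 26.1% and 40.5% of all genes. Atp1a4, the sperm isoform of the sodium pump, was at 455 ± 50.7 CPM in +/+ and 0.807 ± 0.135 in -/- gonads, and Dpp10, which modifies transient-current channels, fell by 2.46 on the log2 scale. Among those higher were Dpp6, the paralogue of Dpp10 with the same role, by 3.08, the pacemaker channel Hcn2, by 1.33, Atp1b2 by 2.704, Abcc9 by 2.19 and Amigo1 by 1.85. In R111G/+ against +/- gonads 6 of the 17 were lower and 0 higher, beside 28.1% and 6.72% of all genes, a count near the background. The lower ones included Lrrc52 (log2 change -3.09), Atp1a4 (-3.79) and Dpp6 (-2.27). In P7 Sertoli cells edgeR called 0 of the 9 partners tested, beside 4.56% of all genes, and 1 of them had an unadjusted p below 0.05.

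The list of chromatin contacts in Dmrt1-null P7 Sertoli cells, 4291 interactions between 10 kb anchors, was read as a description with no control group. An anchor lay in the body of 20 of the 91 members (22%) and of 19.1% of protein-coding genes, and within 10 kb of 31 members (34.1%) and 26.9% of protein-coding genes. Of members called at P7, Kcna6 had an anchor at chr6:126700001-126710000. That anchor was joined to chr6:126560001-126570000, 140 kb away, with no named protein-coding gene at the far end. Kcnj2 had 3 contacts from 1 anchor at chr11:111060001-111070000, and Kcnd2 and Kcnq3 had anchors in their bodies too.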

How the data were processed

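RNA-seq and Hi-C data were used. Upstream of the count table, which the authors made with strand-aware counting over GENCODE M25 genes, reads had been trimmed (Trim Galore 0.6.0, cutadapt 1.18) and aligned by STAR 2.7.2a to the GRCm38 (mm10) build; the deposited values are raw counts. Gene positions and exon lengths came from GENCODE M21, which holds all 91 members. For Hi-C, the deposited list gives anchor coordinates of enriched interactions, without a score.

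Counts were tested with edgeR 4.0.16 in R 4.3.3 (quasi-likelihood F test, TMM scaling, filterByExpr, Benjamini-Hochberg adjustment over all genes tested), with 1 fit each for P28, P7, P3 and the 24 gonad libraries of both ages. A call needed an adjusted p below 0.05 and over 2-fold change. SE is the log2 change divided by the square root of F. For display, levels used 1 TMM scaling over the 30 libraries. The floor for a group at 0 was 3 counts, and exact 95% intervals of count ratios cover counting error only. Scripts were tested on simulated data. The members, gene lists and named-gene rule (Kcna6 and Kcnu1 throughout, up to 10 called members per direction and comparison with at least 1 CPM, all where fewer than 12 were called, the highest per kb of each class in 4 groups, and called partners) were chosen with earlier results of these data known. Kcnma1, Kcna1, Kcnv2, Kcnk16 and Kcnk18 fall outside that rule, as do some values of genes it names for another comparison (Kcnd3 and Kcng1 in +/- against +/+, Kcnk13 at P3, Kcnh2, Kcnk1 and Kcnk5 at P28), and these were chosen after their values were seen. DESeq2 1.42.0, other scalings, no filter, a replicate block and leaving out libraries were alternatives. ChIP-seq tracks were not used here. 0 columns of the count table were left without a sample. Results of some genes are not reported here.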

Additional observations from a re-analysis of the deposited data

Results flagged for a closer look

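In 21 named members the difference between -/- and +/- gonads was not the same at P28 as at P3, by the interaction term of the edgeR fit over both ages. That term called 40 of 68 members (58.8%), beside 41.7% of all 21377 genes, 18.0% higher and 23.7% lower. The 21 were taken from the members it called, mostly for the size of their change. The values are differences of log2 changes, P28 minus P3, with edgeR adjusted p from 5.45e-08 to 0.0251. Below 0 were Kcnj6 (-11.23), Kcnh8 (-10.48), Kcnj9 (-9.20), Kcnc1 (-8.74), Kcne3 (-6.83), Kcnk7 (-5.32), Kcnmb4 (-5.05), Kcnj4 (-4.93), Kcnip2 (-4.93) and Kcnu1 (-4.60). Above 0 were Kcna6 (1.01), Kcnj2 (2.85), Kcns3 (2.94), Kcnj8 (3.13), Kcnt2 (3.23), Kcna5 (3.39), Kcnt1 (3.60), Kcnq1 (3.87), Kcnj15 (4.02), Kcnj3 (5.49) and Kcnj5 (6.89). Genes with few counts in 1 group, such as Kcnj6, Kcnh8 and Kcnj9, have fitted values that depend on the prior count. The Kcna6 call was lost without 5 of the 12 libraries, the Kcnk7 call without 2, and the Kcnj9 and Kcnq1 calls without 1 each. Markers of spermatids and of somatic cells differed between the same groups at P28, and their part was not tested. With factors from the somatic markers, 2 of all 68 members were called above 0, Kcnj3 (3.26) and Kcnj5 (4.66), and Kcna6 had a value of -1.39.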

How the results depend on the processing

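Of 170 recomputed counts of called members, 156 stayed within 1.5 times the reported count. This tally took higher and lower calls together and ignored direction. The changed splits under somatic-marker factors at P28 and across age, given above, therefore count among the 156. Without a filter on low counts, 1 member was called in P28 +/- against +/+, and 2, 3 and 2 in P3 -/-, R111G/+ and R111G/- against +/-. DESeq2 called 2 in P3 R111G/+, and P3 -/- had 0 with somatic-marker factors and 0 with only the 2 groups in the fit. Taking gene bodies alone, 20 members had a Hi-C anchor. Leaving out 1 library gave 4 to 9 calls at P7, 0 to 1 in P3 -/- and 1 to 2 in P3 R111G/+, and 20 to 31 in P28 R111G/+ against +/-. For named members, 2408 recomputed changes comprised 2301 with direction and call kept, 88 with the call lost, 2 with a call gained and 17 of opposite sign; the cause was not tested. Under somatic-marker factors, not run at P7, these were Kcna6 in P28 -/- against +/+ (-1.52) and +/- (-0.605), in P3 R111G/- (-0.0959) and between ages (-1.39), and Kcnu1 in P3 R111G/+ (-0.0829), P3 R111G/- (-0.00265) and -/- across age (-1.01). Leaving out 1 library at P3, Kcna6 in -/- ran from -0.0611 to 0.217, and Kcnu1 from -0.132 to 0.124 in -/-, -0.0873 to 0.151 in R111G/+ and -0.0349 to 0.397 in R111G/-.

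Replicate numbers showed no sign of pairing the samples at P28 or P3, which does not show that they were unpaired, and at P7 3 pairs were too few to tell. Differently numbered libraries at P7 correlated at a mean of -0.116. Deviations of same-numbered libraries correlated at a mean of -0.00798 at P28, -0.0313 at P3 and 0.231 at P7, above 0.1 in 3 of 18, 3 of 18 and 2 of 3 pairs. With a replicate block, member calls at P28 were 43, 44, 0, 23 and 34 in the order of the report, 9 at P7, 1 in each P3 comparison, 44, 31 and 31 across age and 38 for the interaction, and Kcnu1 across age in -/- was -0.125. The block ended 3 calls of named members, Kcnip3 in P28 R111G/+ against +/- and Kcnc1 and Kcnh3 across age in R111G/+. With 3 libraries a group, low-count members carry wide intervals.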
